A study of Mus musculus with 12 samples.

Results

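Brain RNA of mice injected daily with lipopolysaccharide (LPS) was compared with that of mice injected with phosphate-buffered saline (PBS). The members are the 4 libraries labelled LPS on day 7 and the 4 labelled PBS on day 7, chosen by their treatment label, so 8 of the 12 libraries in the series. All mice were adult C57BL/6, an inbred strain, with no transgene or engineered allele named in the labels, and the age is given no more closely than adult. The LPS mice received 0.5 mg/kg into the peritoneum once a day for 7 days, the PBS mice were injected on the same schedule, and brains were taken on day 7. Each arm held 2 females and 2 males, and each mouse gave 1 library. The other 4 libraries, from mice given LPS together with N,N-dimethylacetamide (LPS+DMA, dose not given in the labels), were not compared. They entered the filter on low values, the principal components and the fit, where they shared its estimate of the spread. Values are FPKM, the fragments of a gene per kilobase of its length after scaling for library size, and where 4 values are given for an arm they stand in the order female 1, female 2, male 1, male 2.

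LPS is a cell wall component of Gram-negative bacteria. In blood it is carried by LPS-binding protein to Cd14 and the receptor complex of Tlr4 and Md-2, which signals through Myd88 to the NF-kB transcription factors and through Ticam1 to interferon genes. In the brain, microglia, border macrophages and vascular cells carry this receptor, and known responses to LPS in the periphery include acute-phase, complement, interferon-stimulated and antigen-presentation genes as well as an astrocyte reaction marked by Gfap.

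The 8 libraries held 28.6 M to 41.4 M reads (M, mega), as recovered from the deposited FPKM. The labels name whole brain, yet Gabra6, whose receptor subunit belongs to granule cells of the cerebellum, was at 74.6, 0, 0 and 0 FPKM in PBS and at 114, 0, 15.6 and 90.5 FPKM in LPS. Cerebellar signal was thus seen in 1 PBS and 3 LPS libraries and no Gabra6 read in the other 4. Reads of ribosomal RNA made up 0.0499% in LPS female 2 and 5.15% to 8.63% in the other 7 libraries. LPS female 2 is therefore the LPS library without cerebellar signal and also the one with little ribosomal RNA, and for this library these 2 features cannot be told apart. Principal components were computed over all 12 libraries, LPS+DMA included. On the first, which held 37.5% of the variance, LPS female 1, male 1 and male 2 lay at -43.2, -49.0 and -52.3. LPS female 2 lay at 14, and the PBS libraries between -15.3 and 26.1.

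Of 19571 genes tested with limma, 2 were higher in LPS (0.0102% of tested genes) and none was lower (0%) at an adjusted p under 0.05. At an unadjusted p under 0.05 there were 2145 genes, 890 higher and 1255 lower, and voom on the recovered reads called 1 gene, Lyz2. The 2 genes are Lyz2, a bacterial cell wall-digesting lysozyme of macrophages and microglia, and Saa3, an acute-phase serum amyloid made by cells outside the liver. A second measure counted the genes whose 4 LPS libraries all lay above, or all below, the 4 PBS libraries. There were 703 such genes higher in LPS (3.59% of tested genes) and 646 lower (3.30%), and these 2 shares are the background for each gene group that follows. The split depends on the scaling, with 1120 higher and 379 lower under plain per-million scaling and 800 and 503 under upper-quartile scaling, where the median log2 change of all genes was 0.02 and 0.0085. The median log2 change was 0.34 in the former set and -0.31 in the latter, and 21 and 33 genes respectively changed by more than 1 log2 unit. Over all tested genes the median log2 change was -0.01, and 48.3% had a higher mean in LPS.

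Lyz2 was at 6.57, 8.01, 9.11 and 10.3 FPKM in PBS and at 35.4, 32.4, 38.9 and 33.4 FPKM in LPS. The arms were far apart, with a gap between them wider than the range within either. The fold of means was 4.11, the log2 change 1.93 (SE 0.18, adjusted p = 0.00673). Lyz2 lies on chromosome 10 from 117113236 to 117118226 on the minus strand (GRCm39, deposited table) beside its near-identical copy Lyz1, and reads shared by both could be split between them. Without LPS female 2 the log2 change was 1.97 (adjusted p = 0.00165). The call was lost without PBS female 2, LPS female 1 or LPS male 1, when no gene passed.

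Saa3 was listed at 0 FPKM in all 4 PBS libraries and at 2.42, 3.17, 2.19 and 1.61 FPKM in LPS. These LPS values rest on 164 to 258 reads, and LPS female 2 was the highest. Taking 3 reads in each library as the floor, which covers counting error only, Saa3 was at least 75.7-fold higher in LPS (log2 change 1.72 on the log2(FPKM + 1) scale, SE 0.20, adjusted p = 0.0250). The call was not made by voom (adjusted p = 0.105), and of 12 fits that each leave out 1 library Saa3 passed in 3, those without LPS female 2, LPS male 2 and LPS+DMA male 1. The 200 bases before its start, chromosome 7 from 46715677 to 46715876 on the minus strand of GRCm38.p6 (RefSeq), are shown because Saa3 had no PBS read to start from. Capitals mark a match to the interferon-stimulated response element, searched as GAAANNGAAA on both strands, which begins 125 bases before the start.
Saa3: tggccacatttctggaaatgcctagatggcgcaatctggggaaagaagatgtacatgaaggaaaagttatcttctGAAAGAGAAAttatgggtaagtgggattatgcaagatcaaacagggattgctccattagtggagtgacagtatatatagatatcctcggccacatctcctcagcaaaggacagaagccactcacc

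The plot of single genes by library shows these 2 genes beside 10 others described in the text.

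**Figure D1:**
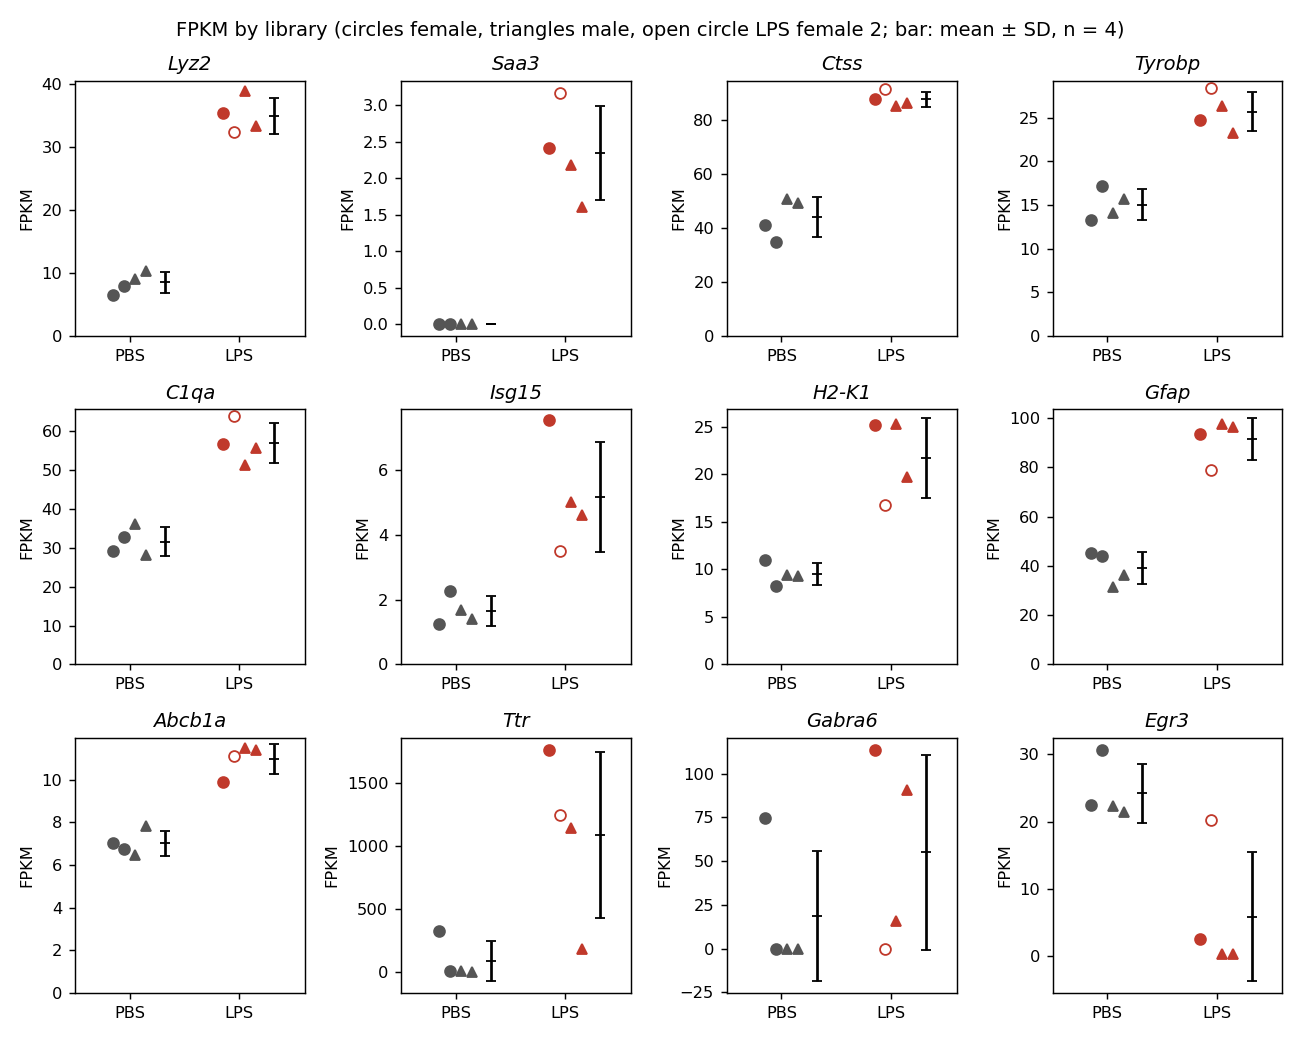
FPKM (vertical axis, linear) of 12 genes in the 4 PBS and 4 LPS libraries; circles are females, triangles males, the open circle is LPS female 2, and bars give the mean and SD of 4 libraries. Lyz2, Saa3, Ctss, Tyrobp, C1qa, Isg15, H2-K1, Gfap and Abcb1a do not overlap between the arms, whereas Ttr and Gabra6 do, and Egr3 in LPS female 2 (20.2 FPKM) stands close to the lowest PBS library (21.4 FPKM).

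Genes of the LPS receptor complex and its adaptors were not called (0 of 18 tested). Their median log2 change was 0.10, 15 of 18 had a higher mean in LPS, and in 2 (11.1%) all LPS libraries lay above all PBS libraries. These were Ly86 and Tlr2. Ly86, also known as MD-1, the partner of the Toll-like receptor homologue Cd180, was at 1.51, 1.67, 1.83 and 1.79 FPKM in PBS and 3.0, 4.39, 3.71 and 3.46 FPKM in LPS (log2 change 0.77, SE 0.15, adjusted p = 0.179). Tlr2, the receptor for bacterial lipoproteins, was at 0.360 to 0.832 FPKM in PBS and 0.998 to 1.49 FPKM in LPS (adjusted p = 0.324). Tlr4, the signalling receptor for LPS, was at 0.253, 0.576, 0.221 and 0.235 FPKM in PBS and 0.605, 0.554, 0.444 and 0.368 FPKM in LPS, so PBS female 2 lay within the LPS range (log2 change 0.18, adjusted p = 0.621). The co-receptor Cd14 was at 0.657 to 1.90 FPKM in PBS and 1.52 to 3.24 FPKM in LPS, and PBS male 2 lay within the LPS range (log2 change 0.60, adjusted p = 0.310).

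Among 17 NF-kB subunits and feedback genes 9 had a higher and 8 a lower mean, with a median log2 change of 0.09. The 3 that did not overlap between arms (17.6%) included Tnip1, an inhibitor of NF-kB signalling, at 6.25 to 6.62 FPKM in PBS and 7.45 to 8.90 FPKM in LPS, and Zfp36, which destabilises cytokine messengers, at 0.609 to 0.805 and 1.29 to 1.41 FPKM. Their adjusted p were 0.337 and 0.485. Nfkbia, the inhibitor that NF-kB itself induces, was at 8.80 to 9.99 FPKM in PBS and 9.62 to 11.2 FPKM in LPS (log2 change 0.16, adjusted p = 0.887).

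Of the cytokine and chemokine genes, 13 of 28 in the table passed the filter on low values, and 11 of these had a higher mean (median log2 change 0.34). The inflammatory messengers Tnf, Il1b and Il6 and the nitric oxide synthase Nos2 did not pass the filter, with no more than 34 reads in any of the 8 libraries. Tnf had at most 10 reads in a PBS library and at most 2 in an LPS library, and Il6 at most 4 in either, so a difference was not detectable at this depth. In 3 chemokine genes (23.1%) the arms did not overlap. Ccl5, which attracts T cells and monocytes, was at 0.431, 0.169, 0 and 0 FPKM in PBS and 1.97, 1.74, 3.58 and 1.44 FPKM in LPS (log2 change 1.44, SE 0.26, adjusted p = 0.142). Cxcl16, a membrane-bound chemokine and scavenger receptor, was at 0.335 to 0.987 and 1.04 to 2.13 FPKM. Cxcl13, the B cell attractant, was at 0 to 0.370 and 0.533 to 2.31 FPKM. Ccl5 and Cxcl13 passed the filter with no PBS library at 0.5 FPKM, so their direction was partly set by the filter. The monocyte attractant Ccl2 overlapped, at 0, 0.191, 0.0936 and 0.164 FPKM in PBS and 0.907, 0.451, 0.0692 and 0.718 FPKM in LPS, where LPS male 1 was as low as PBS. The interferon-induced chemokine Cxcl10 overlapped as well (log2 change 0.19, adjusted p = 0.764). Cx3cl1, the neuronal ligand of the microglial receptor Cx3cr1, was at 96.5, 158, 99.2 and 99.8 FPKM in PBS and 37.0, 120, 35.1 and 28.8 FPKM in LPS. Its low values were in the 3 LPS libraries with cerebellar signal, and LPS female 2 was not low.

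Of 24 tested receptors for cytokines, 21 had a higher mean and 8 (33.3%) lay higher in every LPS library than in any PBS library, with a median log2 change of 0.25, while 1 lay lower throughout. Il1r1, the interleukin-1 receptor, was at 0.770, 0.707, 0.678 and 0.805 FPKM in PBS and 1.35 to 1.72 FPKM in LPS (log2 change 0.52, adjusted p = 0.310). Tnfrsf1a, the main TNF receptor, was at 3.49 to 3.69 and 4.17 to 5.83 FPKM. Csf1r, the receptor that keeps microglia alive, was at 8.77 to 11.3 and 13.3 to 18.2 FPKM, and Tgfbr2, a TGF-beta receptor, at 2.36 to 3.21 and 3.60 to 4.56 FPKM. The PBS values of Tnfrsf1a and Il1r1 spanned narrow ranges, yet no receptor was called.

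Only 6 of 20 acute-phase and iron-withholding genes passed the filter. All 6 had a higher mean, 3 (50%) did not overlap, and Saa3 was called. Saa3 and Lcn2 passed the filter with no PBS library at 0.5 FPKM, so their higher mean in LPS was partly set by the filter. Lcn2, which binds bacterial iron carriers, was at 0.140, 0.0620, 0.0812 and 0.0237 FPKM in PBS and 1.84, 0.648, 1.07 and 0.954 FPKM in LPS. Every LPS library stood far above every PBS library (fold of means 14.7), yet the adjusted p was 0.475 (log2 change 0.96, SE 0.46). Serpina3n, a protease inhibitor of reactive astrocytes, was at 4.77, 5.65, 9.99 and 8.48 FPKM in PBS and 11.8, 15.4, 19.5 and 14.2 FPKM in LPS. Cp, the iron oxidase ceruloplasmin, overlapped between arms, with LPS female 2 at 2.03 FPKM below PBS female 1 at 2.67.

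Lysozyme and phagolysosome genes, which digest what microglia take up, had the largest share of separate members among the immune lists after complement. Of 18 tested, 16 had a higher mean and 11 (61.1%) lay higher in every LPS library than in any PBS library, against 3.59% of all tested genes, and 1 was called. The median log2 change was 0.45. Ctss, a cysteine protease of microglia, was at 41.0, 34.8, 50.8 and 49.3 FPKM in PBS and 87.5, 91.5, 85.1 and 86.1 FPKM in LPS. The 4 LPS libraries differed little from each other, and the log2 change was 0.99 (SE 0.20, adjusted p = 0.180). Ctsh, another cysteine protease, was at 1.79 to 2.88 FPKM in PBS and 4.25 to 5.03 FPKM in LPS. The asparagine-specific protease Lgmn was at 30.7 to 42.6 and 46.5 to 58.9 FPKM. These 3 proteases had higher values in LPS with no overlap between the arms, and none was called.

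The receptors and adaptors that signal through immunoreceptor tyrosine-based activation motifs (ITAM) include the Fc receptors. Of 17 tested, 16 had a higher mean, 10 (58.8%) did not overlap, and the median log2 change was 0.43. Tyrobp, the ITAM adaptor of microglia, was at 13.2, 17.1, 14.1 and 15.7 FPKM in PBS and 24.7, 28.5, 26.3 and 23.3 FPKM in LPS (log2 change 0.73, SE 0.13, adjusted p = 0.142). Fcgr3 and Fcgr4 are receptors for antibody-coated particles. Fcgr3 was at 5.32, 6.79, 5.43 and 5.08 FPKM in PBS and 11, 13.5, 8.30 and 11.2 FPKM in LPS. Fcgr4 was at 0.0733, 0.345, 0.0848 and 0.0989 FPKM in PBS, on 4 to 16 reads, and 1.22, 0.868, 1.29 and 1.49 FPKM in LPS, on 34 to 73 reads. PBS female 2 was the high PBS library for Fcgr4, and the fold of means was 8.08 (log2 change 0.95, adjusted p = 0.117). Clec7a, a receptor for fungal beta-glucans found on activated microglia, was at 0.0617 to 0.424 and 0.705 to 1.14 FPKM. Fcgr4 and Clec7a passed the filter on low values with no PBS library at 0.5 FPKM.

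Complement tags material for uptake. Of 16 tested complement genes 14 had a higher mean and 10 (62.5%) lay higher throughout, with a median log2 change of 0.61 and none called. C1qa, a chain of the initiating C1q molecule, was at 29.2, 32.7, 36.2 and 28.1 FPKM in PBS and 56.7, 63.8, 51.4 and 55.7 FPKM in LPS (log2 change 0.83, SE 0.13, adjusted p = 0.117). Its partner chain C1qc was at 12.5 to 16.4 and 22.4 to 28.7 FPKM. C4b, cleaved downstream of C1, was at 4.25 to 5.51 FPKM in PBS and 7.35 to 11 FPKM in LPS. The central component C3 was at 0.412, 0.0316, 0.487 and 0.260 FPKM in PBS and 1.03, 0.854, 1.40 and 1.15 FPKM in LPS. It passed the filter on low values with no PBS library at 0.5 FPKM. An initiating and a central component thus both had separate arms.

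Interferon-stimulated genes were higher in 32 of 34 tested, and 12 (35.3%) did not overlap, with a median log2 change of 0.33 and none called. Isg15, a ubiquitin-like modifier, was at 1.24, 2.27, 1.67 and 1.41 FPKM in PBS and 7.55, 3.51, 5.0 and 4.62 FPKM in LPS (log2 change 1.20, SE 0.20, adjusted p = 0.127). Ifit3, which binds antiviral signalling proteins, was at 6.43, 4.91, 5.14 and 7.07 FPKM in PBS and 15.2, 9.50, 10.2 and 13.4 FPKM in LPS. In both genes LPS female 2 was the lowest LPS library. Ifit3b, a near copy of Ifit3 whose reads may be shared, was at 1.83 to 3.09 and 3.64 to 6.19 FPKM. Bst2, which tethers enveloped viruses, was at 2.65 to 3.77 and 5.74 to 7.54 FPKM. The list median was 0.15 with choroid plexus and red blood cell covariates.

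Genes that load and present peptides on MHC class I were higher in 15 of 17 tested, and 5 (29.4%) did not overlap (median log2 change 0.29). H2-K1, a classical class I heavy chain, was at 11, 8.19, 9.38 and 9.32 FPKM in PBS and 25.1, 16.8, 25.2 and 19.7 FPKM in LPS (log2 change 1.10, SE 0.17, adjusted p = 0.117). H2-D1, the other classical heavy chain, was at 14.3 to 28.0 and 30.6 to 55.8 FPKM. B2m, the light chain they share, was at 101, 84.2, 73.9 and 70.2 FPKM in PBS and 180, 143, 173 and 148 FPKM in LPS. H2-Q4, a non-classical heavy chain, was at 1.46 to 3.22 and 3.28 to 5.55 FPKM. Heavy and light chains were thus both higher, and reads of H2-K1, H2-D1 and H2-Q4 may be shared because the genes are alike in sequence.

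MHC class II genes, which present peptides to CD4+ T cells, had low levels. All 8 tested had a higher mean (median log2 change 0.38), 2 (25.0%) did not overlap, and none was called. Cd74, the class II chaperone, was at 4.25, 3.50, 1.36 and 3.35 FPKM in PBS and 6.34, 3.29, 5.56 and 3.15 FPKM in LPS. H2-Ab1, a class II chain, was at 1.03, 0.781, 0.394 and 0.653 FPKM in PBS and 2.11, 0.774, 1.92 and 0.776 FPKM in LPS. For both, LPS female 1 and male 1 were high and the other 2 LPS libraries lay inside the PBS range. Those 2 high libraries were also the highest of the 8 in summed red blood cell genes, at 654 and 989 FPKM. With choroid plexus and red blood cell covariates the list median was -0.07. Ifi30, a thiol reductase of antigen processing, did not overlap (1.41 to 2.44 against 3.53 to 5.0 FPKM).

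The promoters of 3 genes of these groups are shown because their arms did not overlap and their messengers are known to respond to interferons or NF-kB. Each line gives the 200 bases before the start (RefSeq, GRCm38.p6). Isg15 is on chromosome 4 from 156200819 to 156201018, minus strand, and Ifit3 on chromosome 19 from 34583329 to 34583528, plus strand. H2-K1 is on chromosome 17 from 34000348 to 34000547, minus strand. Capitals mark GAAANNGAAA on either strand in Isg15 and Ifit3, and the kB site consensus of NF-kB on either strand in H2-K1.
Isg15: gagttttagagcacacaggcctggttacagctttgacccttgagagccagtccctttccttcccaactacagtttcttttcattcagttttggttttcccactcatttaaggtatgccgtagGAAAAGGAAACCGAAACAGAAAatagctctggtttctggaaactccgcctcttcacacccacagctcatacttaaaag
Ifit3: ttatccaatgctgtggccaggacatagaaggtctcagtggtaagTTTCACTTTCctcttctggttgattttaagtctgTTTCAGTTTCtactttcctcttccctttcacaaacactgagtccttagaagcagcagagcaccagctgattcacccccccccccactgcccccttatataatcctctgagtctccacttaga
H2-K1: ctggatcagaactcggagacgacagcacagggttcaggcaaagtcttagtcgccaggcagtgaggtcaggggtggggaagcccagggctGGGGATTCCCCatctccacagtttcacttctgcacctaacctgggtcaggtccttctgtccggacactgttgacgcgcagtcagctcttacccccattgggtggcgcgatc
Isg15 held 3 overlapping matches that begin 78 bases before the start, Ifit3 held 2, the farther at 156 bases, and H2-K1 held 2 overlapping kB matches that begin at 111 bases. In the 250 bases before the start, GAAANNGAAA was found in 2.98% of 32851 single RefSeq promoter windows. Shares of genes count a match in any window of the gene, so they are another measure. By gene, GAAANNGAAA was found in 3.03% of the 12055 tested genes matched to a window by symbol. It was found in 28 of 522 matched genes with all LPS libraries higher (5.36%), in 6 of 397 with all LPS libraries lower (1.51%) and in 14 of 26 matched interferon-stimulated genes (53.8%). The kB consensus was found in 10.7% of the former set, 10.3% of the latter and 10.6% of all matched tested genes. A match describes letters in a window and not a bound site.

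**Figure D2:**
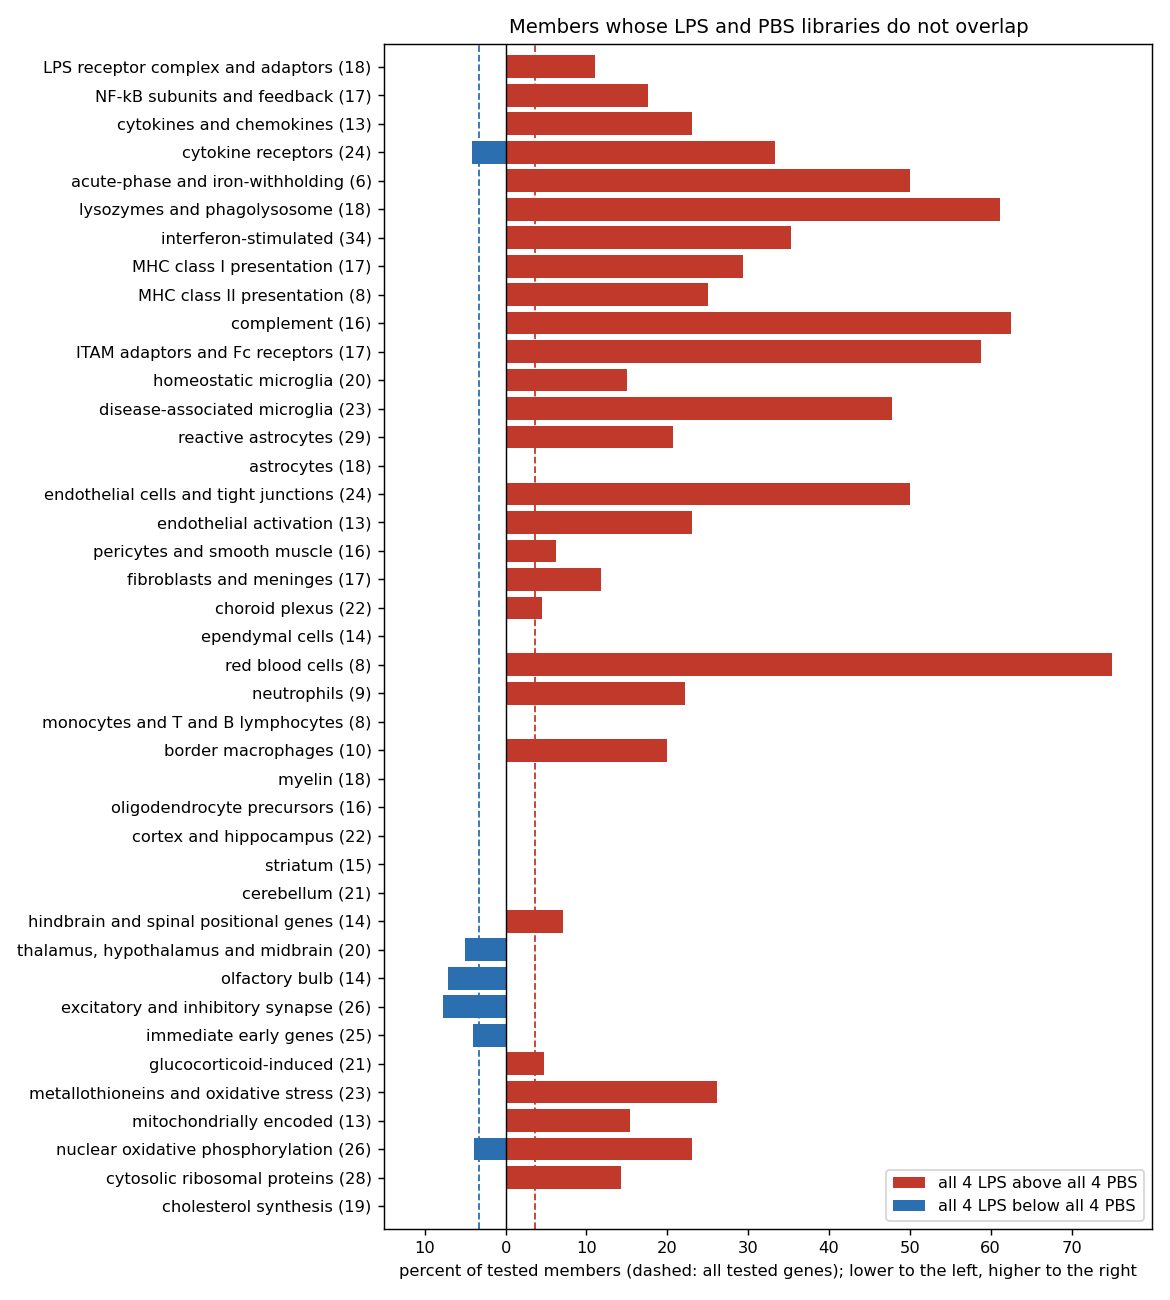
Percent of the tested members of each gene list (number tested in brackets) whose 4 LPS libraries all lie above (right) or all below (left) the 4 PBS libraries; dashed lines are all tested genes, 3.59% higher and 3.30% lower. Complement (62.5%), lysozymes and phagolysosome (61.1%) and ITAM adaptors (58.8%) reach far right, red blood cells reach 75.0%, and the astrocyte, myelin and cerebellum bars are at 0.

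Microglial genes were taken as a list of the resting state and a list of an activated state. Among 20 homeostatic genes 14 had a higher mean and 3 (15%) did not overlap (median log2 change 0.21). The 23 tested genes of disease-associated microglia, a state described in neurodegeneration models, had 20 higher, 11 not overlapping (47.8%), 1 called (Lyz2) and a median of 0.35. The difference between the 2 lists was not tested. P2ry12, the purine receptor of resting microglia, was at 8.89, 10.6, 10.7 and 9.94 FPKM in PBS and 7.36, 16.6, 7.96 and 8.24 FPKM in LPS. LPS female 2 was the highest of the 8 and the other 3 LPS libraries were the lowest. Aif1, the microglial protein IBA1, was at 2.73 to 3.62 and 4.20 to 5.57 FPKM (log2 change 0.48, adjusted p = 0.522). Cd52, a small surface glycoprotein of leukocytes, was at 1.94, 0.959, 1.84 and 1.10 FPKM in PBS and 3.73, 3.24, 4.60 and 2.82 FPKM in LPS (log2 change 0.91, adjusted p = 0.180). Fth1, the ferritin heavy chain that stores iron, was at 329 to 528 and 572 to 882 FPKM. Trem2, the lipid receptor that signals through Tyrobp, overlapped (log2 change 0.34, adjusted p = 0.523). Tspo, the mitochondrial protein used as an imaging marker of glial activation, was at 3.37, 2.99, 3.34 and 2.98 FPKM in PBS and 7.77, 6.83, 6.02 and 7.02 FPKM in LPS (log2 change 0.92, SE 0.15, adjusted p = 0.128). It passed in a fit of the 8 libraries alone (adjusted p = 0.0476). In whole tissue, more cells of a type and more RNA per cell cannot be told apart.

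Reactive astrocyte genes were higher in 25 of 29 tested, with 6 (20.7%) not overlapping and a median log2 change of 0.41. This list includes H2-D1, Lcn2 and Serpina3n, already described with the MHC class I and acute-phase genes, so the counts share genes. Gfap, the intermediate filament that marks reactive astrocytes, was at 45.3, 43.9, 31.4 and 36.2 FPKM in PBS and 93.5, 79.0, 97.5 and 96.3 FPKM in LPS (log2 change 1.21, SE 0.25, adjusted p = 0.181). Vim, another intermediate filament, was at 11.2, 8.11, 6.64 and 6.87 FPKM in PBS and 23.5, 12.1, 15 and 17.3 FPKM in LPS, with LPS female 2 lowest of its arm. General astrocyte genes did not separate. Of 18 tested, 14 had a higher mean but none (0%) had separate arms, and the median was 0.14. S100b, a calcium-binding protein, was at 174, 85.4, 107 and 143 FPKM in PBS and 320, 110, 258 and 300 FPKM in LPS. Aqp4, the water channel of astrocyte endfeet, was at 21.7 to 33.8 and 25.8 to 58.5 FPKM. Slc1a2, the main glutamate transporter, was at 148, 187, 166 and 167 FPKM in PBS and 98.6, 206, 102 and 93.0 FPKM in LPS. In all 3 genes LPS female 2 stood apart from the other LPS libraries and nearer to PBS, whereas for Gfap it was far above PBS.

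Endothelial and tight junction genes were higher in 23 of 24 tested, 12 (50%) did not overlap, and the median log2 change was 0.42. Abcb1a, the drug efflux pump P-glycoprotein of the blood-brain barrier, was at 7.01, 6.72, 6.48 and 7.82 FPKM in PBS and 9.91, 11.1, 11.5 and 11.4 FPKM in LPS (log2 change 0.58, SE 0.10, adjusted p = 0.133). Cldn5, the main claudin of brain endothelium, was at 18.2, 22.1, 19.9 and 22.7 FPKM in PBS and 25.6, 33.8, 36.4 and 28.7 FPKM in LPS. Slco1a4, an organic anion transporter, was at 6.05 to 8.83 and 10.5 to 16 FPKM, and Bsg, the surface glycoprotein basigin, at 180 to 214 and 249 to 272 FPKM. Barrier genes of transport and of junctions therefore had higher values side by side. F11r, the junctional adhesion molecule JAM-A, which is not on the list, was at 2.74, 2.04, 2.36 and 2.24 FPKM in PBS and 4.95, 5.07, 4.66 and 4.38 FPKM in LPS (log2 change 0.79, adjusted p = 0.128). F11r passed when LPS+DMA male 1 was left out of the fit (adjusted p = 0.0238). Vwf, the clotting adhesion protein of endothelium, was at 1.05, 0.866, 0.859 and 1.17 FPKM in PBS and 3.41, 2.46, 2.84 and 2.61 FPKM in LPS (fold of means 2.87, log2 change 0.94, adjusted p = 0.310). Vcam1, the leukocyte adhesion molecule of activated endothelium, overlapped, at 2.41 to 3.38 and 2.75 to 4.31 FPKM. Of the 13 endothelial activation genes 3 (23.1%) did not overlap, and of 16 pericyte and smooth muscle genes 1 (6.25%), the pericyte gene Rgs5, at 23.1 to 31.1 and 36.3 to 58.9 FPKM.

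Markers of tissue other than parenchyma moved with the LPS arm, and their part in the results above was not tested beyond the covariate values given. Summed over 22 choroid plexus genes the level was 50.4 to 440 FPKM in PBS and 274 to 2084 FPKM in LPS, and 21 of 22 had a higher mean (median log2 change 1.14). Ttr, the thyroid hormone carrier of choroid plexus, was at 327, 5.19, 4.89 and 0.576 FPKM in PBS and 1760, 1240, 1140 and 181 FPKM in LPS, so LPS male 2 lay below PBS female 1. Kl, which is also enriched in choroid plexus, was at 0.253 to 1.78 and 0.953 to 5.93 FPKM. None of the 22 markers was at 0 in all 8 libraries. Red blood cell genes summed to 131 to 190 FPKM in PBS and 326 to 989 FPKM in LPS. Of 8 tested, 7 were higher and 6 (75.0%) did not overlap, and Gata1 was the 1 of 14 at 0 in all 8 libraries. Hbb-bs, a beta-globin, was at 63.7, 54.6, 40.3 and 43.4 FPKM in PBS and 353, 117, 548 and 164 FPKM in LPS. Alas2, which makes haem in erythroid cells, was at 0.310 to 0.699 and 2.84 to 9.27 FPKM (log2 change 1.94, adjusted p = 0.142).

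White blood cells gave smaller and less even values. The 16 neutrophil genes summed to 2.14 to 4.27 FPKM in PBS and 5.73 to 61.3 FPKM in LPS, with LPS male 1 highest. S100a9, a calprotectin subunit abundant in neutrophils, was at 0.441, 0.831, 0.102 and 0.119 FPKM in PBS and 6.72, 2.09, 26.9 and 7.58 FPKM in LPS (log2 change 2.69, SE 0.52, adjusted p = 0.177). Its partner S100a8 had no read in LPS female 2 and was at 2.76, 15.2 and 4.82 FPKM in the other LPS libraries. Monocyte and lymphocyte genes summed to 17.4 to 24.3 FPKM in PBS and 23.2 to 36.1 FPKM in LPS, with no separate member among 8 tested. The 15 border macrophage genes summed to 6.85 to 11.2 FPKM in PBS and 12.7 to 14.5 FPKM in LPS, and 2 of 10 tested (20%) did not overlap. Ependymal genes, with the cilia regulator Foxj1 at 1.61 to 4.54 and 4.03 to 7.46 FPKM, had no separate member among 14.

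**Figure D3:**
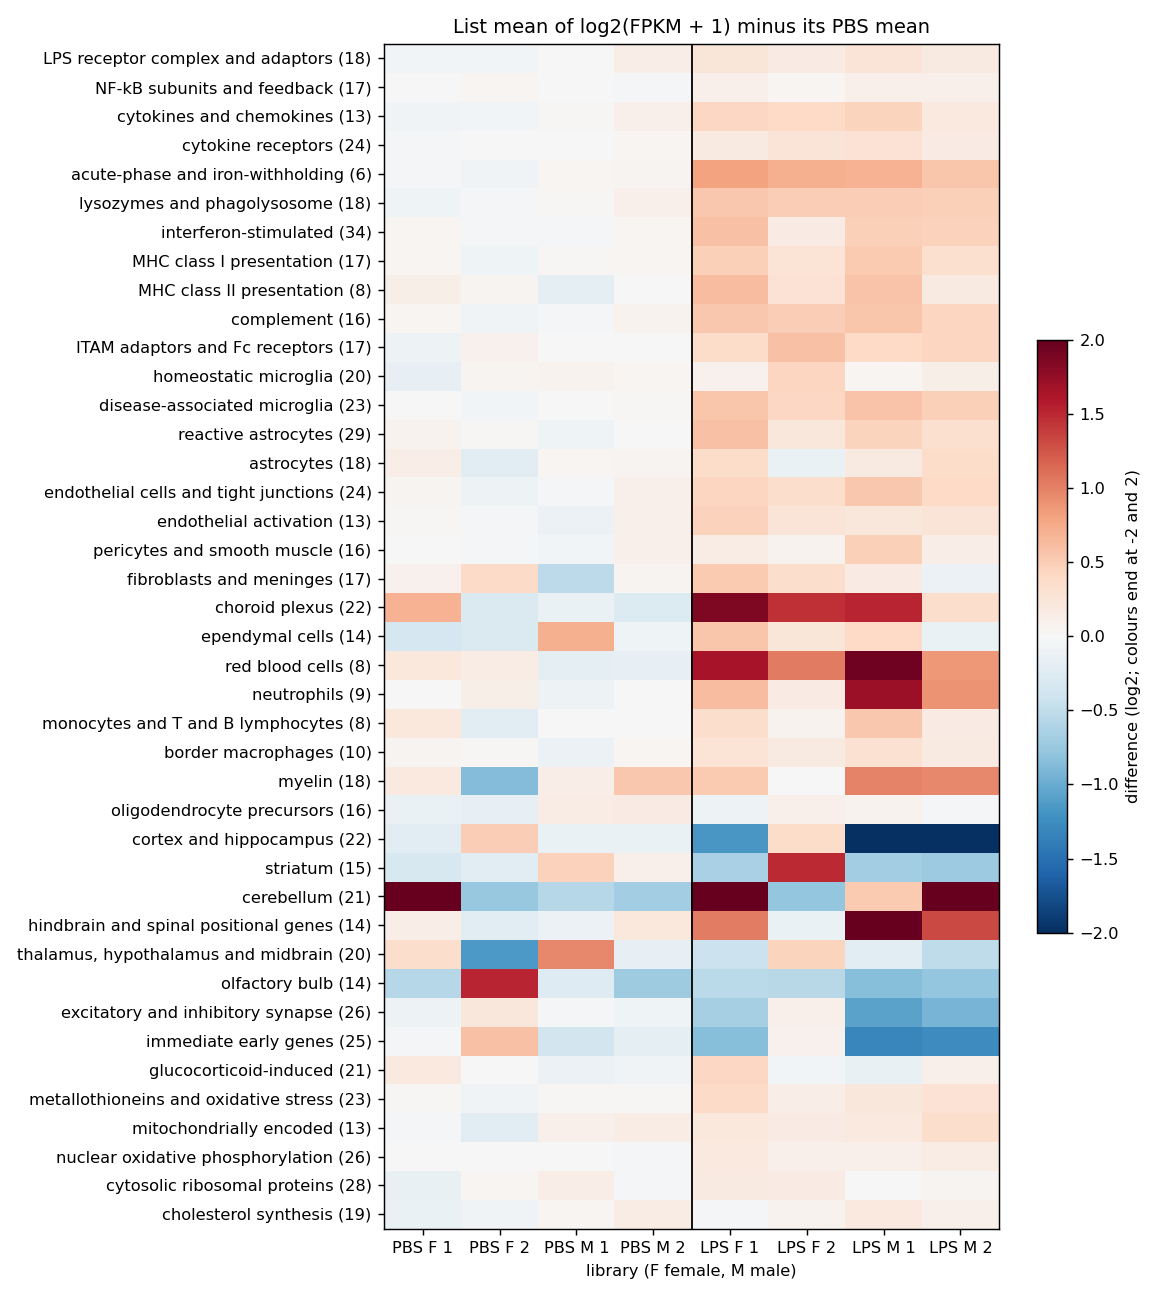
Mean log2(FPKM + 1) of each gene list (rows, number of tested genes in brackets) in each of the 8 libraries (columns, F female, M male), minus the mean of the 4 PBS libraries; red is higher and blue lower, with colours ending at -2 and 2. The complement, phagolysosome, endothelial and red blood cell rows are red in all 4 LPS libraries, while the cortex, synapse and immediate early gene rows are blue in LPS F 1, M 1 and M 2 and not in LPS F 2.

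Genes of brain regions were uneven within the LPS arm. Cortex and hippocampus genes summed to 775 to 1433 FPKM in PBS and to 320, 1420, 139 and 150 FPKM in LPS, with LPS female 2 at the PBS level. Of 22 tested, 18 had a lower mean (median log2 change -1.30) but none (0%) had separate arms. Tbr1, a transcription factor of cortical neurons, was at 8.63, 14.5, 9.53 and 8.82 FPKM in PBS and 1.19, 13.3, 0.0669 and 0.0512 FPKM in LPS. Nrgn, a calmodulin-binding postsynaptic protein of the forebrain, was at 283 to 395 FPKM in PBS and 46.8, 459, 4.93 and 9.44 FPKM in LPS. The synaptic kinase Camk2a was at 138 to 268 FPKM in PBS and 50.8, 291, 9.45 and 10.6 FPKM in LPS. All 3 forebrain genes were far lower in both LPS males than in any PBS library, and Tbr1 was nearly absent there. Hox and other hindbrain genes were high in the same libraries, summing to 0.441 to 13.7 FPKM in PBS and 43.2, 2.17, 130 and 71.7 FPKM in LPS. Hoxb4, a positional gene of hindbrain and spinal cord, was at 0 to 0.0717 FPKM in PBS and 0.552, 0.15, 2.33 and 0.976 FPKM in LPS. It passed the filter on low values with no PBS library at 0.5 FPKM, so its direction was partly set by the filter. Of 20 hindbrain genes 14 passed the filter, and all 14 had a higher mean. Tph2, the serotonin-synthesising enzyme of the raphe nuclei, was at 1.66, 0.188, 0.278 and 13.1 FPKM in PBS and 16.8, 0.713, 38.7 and 12.7 FPKM in LPS. PBS male 2 thus matched LPS male 2 in this brainstem gene. Cerebellum genes had a median log2 change of 0.82, which was -0.49 with the region covariate and -0.06 and -0.33 among libraries without and with Gabra6, and 15 of 21 were lower in both kinds. The region covariate holds the cerebellum list and Gabra6 is a member of it, so these shifts of the median are partly built in. Striatum genes had a median of -0.13, which was 0.60 with the region covariate and 0.86 with choroid plexus and red blood cell covariates, with striatum genes summing to 421 FPKM in LPS female 2 and 114 to 182 FPKM in the other 7 libraries. Olfactory bulb genes had a median of -0.74, with PBS female 2 highest at a sum of 162 FPKM and the others at 29.3 to 68.4 FPKM. The medians were 0.01 for oligodendrocyte precursors, -0.23 for thalamus, hypothalamus and midbrain, 0.27 for fibroblasts and meninges and 0.13 for glucocorticoid-induced genes.

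Synapse and immediate early genes had lower means in LPS, and the list means were lowest in the same 3 libraries. Of 26 synapse genes 23 had a lower mean (median log2 change -0.51) and 2 (7.69%) lay lower in every LPS library. Syt1, the calcium sensor of vesicle release, was at 123, 189, 131 and 124 FPKM in PBS and 64.0, 156, 44.0 and 45.1 FPKM in LPS. Of 25 immediate early genes, which neurons switch on with activity, 22 had a lower mean (median -0.73) and 1 (4%) lay lower throughout. That gene was Egr3, at 22.4, 30.7, 22.3 and 21.4 FPKM in PBS and 2.44, 20.2, 0.322 and 0.336 FPKM in LPS (log2 change -2.89, SE 0.59, adjusted p = 0.181). The LPS female 2 value was just under the lowest PBS value. Nr4a1, a nuclear receptor gene of the same class, was at 9.26 to 23.5 FPKM in PBS and 3.41, 12.1, 1.85 and 2.34 FPKM in LPS.

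The genes described next are among the 646 that were lower in all 4 LPS libraries, LPS female 2 included. Th, tyrosine hydroxylase, the rate-limiting enzyme of dopamine and noradrenaline synthesis, was at 13.9, 16.1, 13.1 and 13.4 FPKM in PBS and 6.31, 5.09, 6.45 and 6.00 FPKM in LPS. The 2 arms were each tight and far apart (fold of means 0.422, log2 change -1.12, SE 0.27, adjusted p = 0.257). Th is also on the olfactory bulb list and the thalamus, hypothalamus and midbrain list, whose sums differed widely between libraries. The part of regional content in its lower values was not tested. Th passed in a fit of the 8 libraries alone (adjusted p = 0.0383) and lies on chromosome 7 from 142446489 to 142484865 on the minus strand (GRCm39). Rskr, a kinase gene, was at 1.99, 2.58, 2.82 and 3.10 FPKM in PBS and 0.295, 0.970, 0.915 and 0.374 FPKM in LPS (log2 change -1.16, adjusted p = 0.273). Inha, the inhibin alpha subunit, was at 9.0 to 10.6 and 5.58 to 7.12 FPKM. Herc1, a large ubiquitin ligase, was at 11.3 to 12.3 and 8.11 to 9.78 FPKM, and Akap8l, a nuclear anchoring protein, at 17.6 to 21.3 and 8.10 to 14.9 FPKM. Dio2, the enzyme that activates thyroid hormone in glia, was at 9.44 to 14.7 FPKM in PBS and 4.85 to 8.44 FPKM in LPS. Dlk2 and Osbpl3 also lay lower throughout, but LPS female 2 was closer to PBS than to its own arm, at 5.13 FPKM against at most 1.95 for Dlk2 and at 3.12 against at most 1.57 for Osbpl3.

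Metabolic lists gave small changes. All 13 mitochondrially encoded genes had a higher mean (median log2 change 0.16), and 2 (15.4%) did not overlap. Of 26 nuclear oxidative phosphorylation genes 24 had a higher mean (median 0.17) and 6 (23.1%) lay higher throughout. Cox8b, a cytochrome c oxidase subunit of heart and muscle, was at 0.895, 0.602, 1.33 and 0.776 FPKM in PBS and 4.18, 4.01, 2.84 and 2.63 FPKM in LPS. These values rest on 8 to 18 reads in PBS and 37 to 51 in LPS (log2 change 1.21, SE 0.18, adjusted p = 0.117). The related muscle-type subunit Cox6a2, which is found in some neurons, was at 5.90 to 7.28 FPKM in PBS and 1.04, 7.83, 0.772 and 0.902 FPKM in LPS. Of 23 genes of metallothioneins and oxidative stress 22 had a higher mean and 6 (26.1%) did not overlap. Nfe2l2, the master regulator NRF2, was at 3.64 to 4.38 and 5.26 to 6.03 FPKM, and Cyba, a subunit of the phagocyte oxidase, at 3.92 to 4.33 and 5.03 to 7.52 FPKM. Pon3, a lactonase that protects lipids from oxidation, was at 0.680, 0.384, 0.330 and 0.330 FPKM in PBS and 2.14, 1.73, 1.30 and 1.00 FPKM in LPS (log2 change 0.82, adjusted p = 0.117). Of 28 cytosolic ribosomal protein genes 26 had a higher mean with a median of 0.09 (Rplp0 0.26), and 4 (14.3%) did not overlap. Myelin genes were higher in 18 of 18 (median 0.63), with none separate and a median of -0.60 with choroid plexus and red blood cell covariates. Cholesterol synthesis genes had a median of 0.07 and no separate member.

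LPS and PBS were also compared within each kind of library. Among libraries without Gabra6 this sets LPS female 2 against PBS female 2, male 1 and male 2, and among libraries with Gabra6 it sets LPS female 1, male 1 and male 2 against PBS female 1. Each has 1 library on a side and is given here as differences without a test. LPS female 2, which stands alone in the former, is also the library with 0.0499% ribosomal RNA. Over all tested genes 4690 (24.0%) were higher in LPS in both and 5355 (27.4%) lower in both. Higher in both were all 17 ITAM genes, all 24 endothelial genes, 17 of 18 phagolysosome genes, 14 of 16 complement genes, 19 of 23 disease-associated microglia genes and 22 of 34 interferon-stimulated genes. This was not particular to immune and vascular lists. All 13 mitochondrially encoded genes, 26 of 28 ribosomal protein genes, 17 of 23 metallothionein and oxidative stress genes and 14 of 26 nuclear oxidative phosphorylation genes were higher in both. The median differences were near one another for ITAM genes (0.46 without Gabra6 and 0.48 with it), endothelial genes (0.36 and 0.36) and phagolysosome genes (0.39 and 0.46). Lyz2 differed by 1.72 and 2.28 log2 units, Saa3 by 2.06 and 1.61, Gfap by 1.08 and 1.06, and Th by -1.32 and -1.04. These genes all have separate arms, which fixes the sign of both differences in advance. The same holds for 12 of the endothelial, 11 of the phagolysosome, 10 of the ITAM and 10 of the complement genes. For such genes the sign is not a second check. Neuronal lists had unlike medians without and with Gabra6. For cortex and hippocampus genes they were 0.29 and -1.71, and none was higher and 1 of 22 (4.55%) lower in both. Synapse genes gave 0.07 and -0.55, with 0 of 26 higher and 8 (30.8%) lower in both. Immediate early genes gave -0.08 and -1.09, with 1 of 25 higher and 12 (48.0%) lower in both, against 27.4% of all tested genes. Of those lower in both, 2 synapse genes and 1 immediate early gene have separate arms, which fixes their sign. Hindbrain genes gave -0.04 and 1.28. Choroid plexus genes were higher in both for 20 of 22 (medians 1.51 and 0.64), and red blood cell genes for 7 of 8 (1.40 and 1.75).

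**Figure D4:**
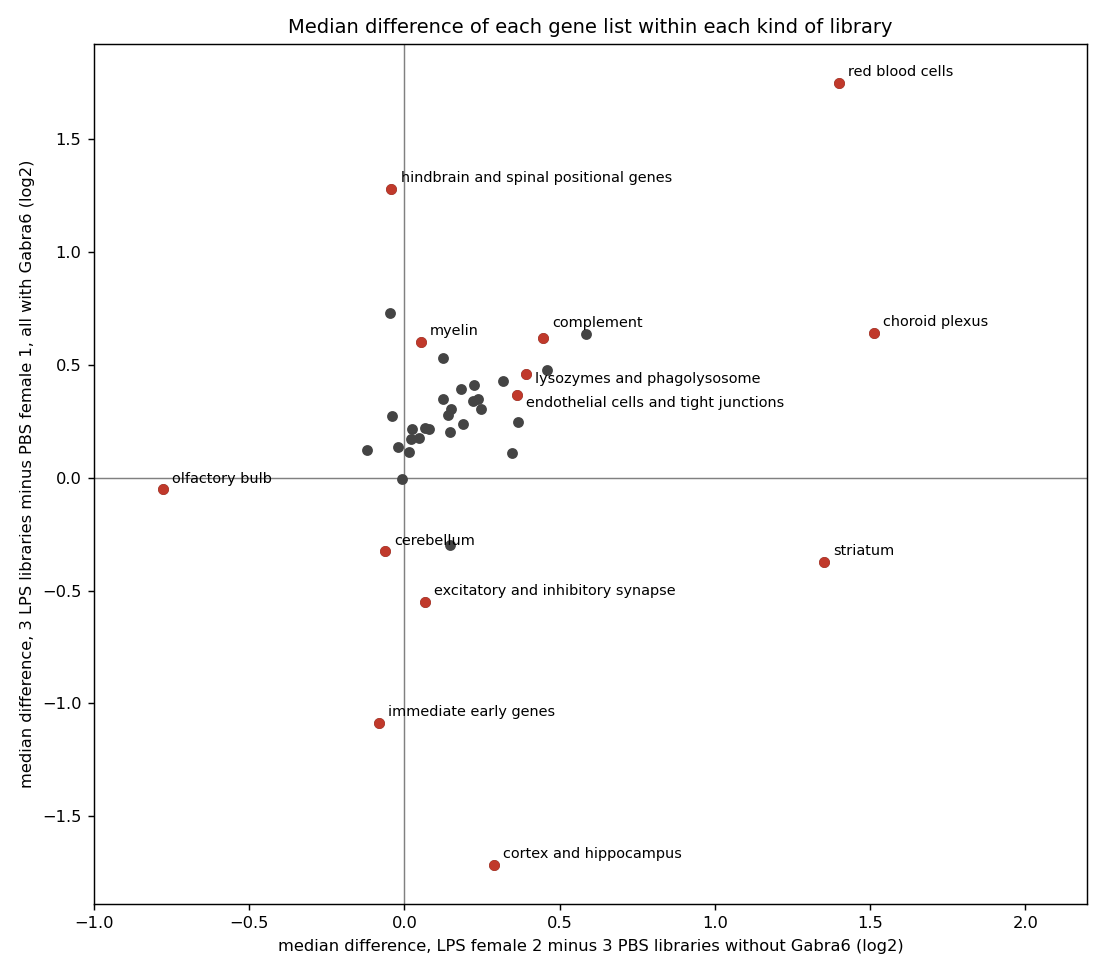
Median log2 difference of each gene list between LPS and PBS among libraries without Gabra6 (horizontal axis, LPS female 2 minus 3 PBS libraries) and among libraries with it (vertical axis, 3 LPS libraries minus PBS female 1); each point is 1 list and red points are named. The complement, phagolysosome and endothelial lists lie right of and above 0, while the cortex and hippocampus list lies at 0.29 and -1.71 and the immediate early genes at -0.08 and -1.09.

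A score of cortical and hippocampal against cerebellar content, the region covariate, left no gene called by limma (971 at an unadjusted p under 0.05). Choroid plexus and red blood cell covariates left none either (758). Hox and other hindbrain genes, a separate list, had a median log2 change of 0.59 with the region covariate and 0.95 without it. The list medians with the region covariate were 0.49 for ITAM genes, 0.47 for complement, 0.41 for phagolysosome genes and 0.36 for endothelial genes, against 0.43, 0.61, 0.45 and 0.42 without it. With the choroid plexus and red blood cell covariates they were 0.42, 0.41, 0.43 and 0.27. Reactive astrocyte genes went from 0.41 to 0.27 under either, MHC class I genes from 0.29 to 0.21 and 0.19, interferon-stimulated genes from 0.33 to 0.24 and 0.15, and general astrocyte genes from 0.14 to -0.07 and 0.0069. The cortex and hippocampus median went to -0.59 and -0.46 under the respective covariates, and the former is partly built in because that covariate holds this list.

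Leaving out LPS female 2 raised the count to 672 called genes, 187 higher in LPS (0.955% of tested genes) and 485 lower (2.48%). All 3 LPS libraries left then have cerebellar signal, against 1 of 4 PBS libraries. Of the interferon-stimulated genes 13 of 34 were called higher, of disease-associated microglia genes 8 of 23, of phagolysosome genes 5 of 18, and of complement, ITAM and MHC class I genes 4 each. Some lists share members, so these counts overlap. Lyz2, for example, is on both the disease-associated microglia and the phagolysosome list. Endothelial genes had 1 of 24 called, which was Abcb1a, cytokine receptors 0 of 24 and MHC class II genes 0 of 8. Of the markers of other tissue, 5 of 22 choroid plexus genes and 4 of 8 red blood cell genes were called higher. Hindbrain positional genes had 11 of 14 called higher, and low members such as Hoxb4 could pass the filter through LPS libraries. Called lower were 16 of 22 cortex and hippocampus genes, 11 of 26 synapse genes and 9 of 25 immediate early genes. Among single genes, Isg15 had a log2 change of 1.37 (adjusted p = 0.00348), H2-K1 1.21 (0.00520), C1qa 0.78 (0.0164), Tyrobp 0.71 (0.0265), Abcb1a 0.56 (0.0239) and Gfap 1.24 (0.0401), while Th was not called at -1.08 (0.0855).

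The difference between the LPS effect in males and that in females was tested with an interaction term. No gene passed with limma (0% of 19571), 491 had an unadjusted p under 0.05, and voom called none. Lyz2 changed by 2.08 in females and 1.79 in males, and the difference was -0.29 (unadjusted p = 0.41). Saa3 changed by 1.92 and 1.53 (difference -0.39, unadjusted p = 0.30). Gabra6 differed more, at 0.30 in females and 5.28 in males, with cerebellar signal in 1 female library of each arm and, among males, in both LPS libraries and neither PBS library. Nrgn gave -1.18 and -5.42 (difference -4.24, unadjusted p = 0.0056) and S100a9 1.59 and 3.80 (difference 2.21, unadjusted p = 0.034), and neither passed after adjustment.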

How the data were processed

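RNA was measured as poly-A RNA-seq of the brain in 12 mice, 4 per arm. The FPKM values were made by the authors from aligned reads and deposited as 1 table of 56748 genes, beside a gene length column in bases. The build is GRCm39 per the submitters' processing notes, which also list HISAT2 2.2.1 and STAR, featureCounts 2.0.6, edgeR 4.0.16 and DESeq2 1.42.0, fastp and GATK, without role or order. Per the labels' protocols, preparations with and without strand information are both described, so overlapping genes and near-identical copies are uncertain. All per-sample columns named a sample.

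FPKM times length gave whole multiples of 1 step for 100% of values up to 1000 reads (tolerance 0.1 reads), and the resulting reads served for depth, floors of 3 reads and voom. The lowest of these depths was 27.5 M reads (M, mega) over the 12 libraries, and intervals cover counting error only. The 19571 genes that reached 0.5 FPKM in 2 or more of the 12 libraries were tested as log2(FPKM + 1), which understates changes of low genes, with limma 3.58.1 in R 4.3.3. A low gene could pass this filter through a single arm, which favours a higher mean in that arm in the list counts. The model held sex and treatment over 12 libraries, with trended, robust variances, and a gene was called at a Benjamini-Hochberg adjusted p under 0.05. The method was tested on simulated data. No 2 libraries were alike enough to be 1 library.

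Members, gene lists and tests were chosen with earlier results of these data known. Genes named were those called, the 15 higher and 15 lower coding genes with the smallest p among those with separate arms, a panel of inflammatory and glial genes, and up to 4 genes with the smallest p per list. The text gives part of these. Promoter windows (RefSeq, GRCm38.p6) were matched by symbol and used for their letters only. Alternatives covered the pseudocount, filter, scaling, variance model, samples, covariates, a replicate block, voom and each library left out.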

Additional observations from a re-analysis of the deposited data

Results flagged for a closer look

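Samples far from the other 3 of their arm were found in 18 of 217 groups of 4 libraries examined for the genes named, and chance gives about 1 in 20. PBS female 2 was such a library for Tlr4 (0.576 FPKM), Cx3cl1 (158.5), Fcgr4 (0.345), Egr3 (30.7), Syt1 (188.9) and Osbpl3 (5.05), where it was the highest PBS library each time. LPS female 2 was it for P2ry12 (16.6), Slc1a2 (205.8), Egr1 (37.6), Dlk2 (5.13) and Cox6a2 (7.83), always as the highest of its arm, and for Il1b (0.0168) as the lowest. PBS female 1 was the high library for Kl (1.78), Gabra6 (74.6) and Pon3 (0.680), and PBS male 2 for Cxcl16 (0.987). LPS male 2 was the 1 LPS library with reads of Tnf (0.0312) and Il6 (0.0421). In the LPS+DMA arm, which was not compared but entered the fit, Saa3 was above the PBS level of 0 in female 2 (0.0279 FPKM), male 1 (0.75) and male 2 (0.0295). Without LPS+DMA male 1 the adjusted p of Saa3 for LPS against PBS in limma was 0.00265.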

How the results depend on the processing

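The count of 2 called genes was 1 with a pseudocount of 0.1, with no filter, with voom on the recovered reads and with a replicate block, where Lyz2 passed (adjusted p = 0.0264). Same-numbered animals did not deviate together throughout (r from -0.07 to 0.485), so the numbers were not taken to pair them. It was 4 in a fit of PBS and LPS libraries alone, 0 with the region covariate, 0 with choroid plexus and red blood cell covariates, and 4 among libraries with Gabra6 under 1 FPKM. In that last fit LPS female 2, with 0.0499% ribosomal RNA, is the whole LPS arm and is assumed to vary like the other arms, and the 4 genes (mt-Rnr1, mt-Rnr2, Rn18s-rs5 and Lars2, all lower) include 3 of ribosomal RNA, so they describe this library. Leaving out each library in turn gave 0 to 672. The sex difference gave 2 calls with no filter and 0 to 17 when each library was left out, 17 of them without LPS female 1. The 1349 separate genes became 1676 to 4981 when 1 of the 8 libraries was left out, with 4981 without LPS female 2 and 2194 without PBS female 1. Of 2824 alternative values for 105 named genes, 2705 kept direction and side of the threshold, 59 newly passed, 22 no longer passed, 14 shifted in size and 24 turned sign. With choroid plexus and red blood cell covariates the sign turned for Cd74 (-0.39), H2-Ab1 (-0.17), Aqp4 (-0.24), Vcam1 (-0.0567), Rgs5 (-0.0085), Hbb-bs (-0.35), Hba-a1 (-0.0493), Slc6a4 (-0.35), Tph2 (-0.61), Cat (-0.0922), Mbp (-0.47) and Foxj1 (-0.17). Among libraries with Gabra6 under 1 FPKM, with this 1 LPS library, it turned for Cxcl10 (-0.0677), Slc1a2 (0.0819), Slc6a4 (-0.33), Camk2a (0.29), Nrgn (0.0409), Cox6a2 (0.0814) and P2ry12 (0.0794). With the region covariate it turned for P2ry12 (0.27) and Gabra6 (-0.90), and with libraries left out P2ry12 ranged from -0.24 to 0.16. Gabra6 is on the cerebellum list that entered the region covariate. Hbb-bs and Hba-a1 are on the red blood cell list that made its covariate, so their turns are partly built in as well. The cause was not tested in any of these. Low read numbers limit Tnf, Il1b, Il6 and Nos2.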
